A study of Homo sapiens with 8 samples.

Results

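The genes described here are 54 genes of ribosome biogenesis and the nucleolus, measured by RNA sequencing in MOLM13, a human cell line of acute myeloid leukemia. They were listed by gene symbol, with no measured value in the rule, though the list was drawn up with earlier results of these data known. All 54 had an entry in the deposited table of 35369 genes, and all 54 were among the 13030 genes that passed a filter on low values. By role they comprised 3 nucleolar scaffold proteins and phosphoproteins, 3 core proteins of box C/D and 4 of box H/ACA small nucleolar ribonucleoproteins (snoRNPs), 5 genes of RNA polymerase I and its regulation, 17 small subunit assembly genes, 19 large subunit assembly genes and 3 other nucleolar genes.

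The study had 4 groups of 2 libraries, all of polyadenylated RNA from MOLM13. The controls are labelled WT. The knockdown group carried a short hairpin RNA against IGF2BP2, which encodes an RNA-binding protein known to bind and stabilise messenger RNAs, also those carrying N6-methyladenosine. The rescue group is labelled IGF2BP2 rescue, and the mutant rescue group as rescue with a mutant form. The protocol, given in the same words for every library, describes viral infection with polybrene and puromycin selection where needed, in RPMI-1640 medium with serum. The sources used here do not give the hairpin, the control vector, the mutation or the time of harvest, and nothing says that the replicates were separate cultures or clones. The p-values therefore measure how far these libraries differ, and that spread may be technical.

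Ribosome production starts in the nucleolus, where RNA polymerase I transcribes the ribosomal RNA precursor. Box C/D snoRNPs guide 2′-O-methylation and processing of that precursor, and box H/ACA snoRNPs guide pseudouridylation. The small subunit processome and a series of large subunit assembly factors then cleave, fold and load it with ribosomal proteins. Many of these genes are textbook targets of the transcription factor MYC, which binds the E-box, and their expression is high in proliferating cells and in leukemia.

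IGF2BP2 itself checked the labels. Its log2 value was 10.94 and 10.89 in the controls, 10.24 and 10.25 in the knockdown, 11.36 and 11.13 in the rescue, and 11.03 and 10.68 in the mutant rescue. It was 1.59-fold lower in the knockdown than in the controls (log2 change −0.67, SE 0.13, limma adjusted p = 0.0147). It was higher than in the knockdown by 1.00 in the rescue (adjusted p = 0.00324) and by 0.61 in the mutant rescue (adjusted p = 0.0298). All 10 genes listed for the identity of the line, which include PTPRC, SPI1, FLT3 and MPO, passed the filter. Of 15 markers of other cell types only KRT8, KRT18 and NCAM1 passed it, and CD3E, MS4A1 and HBA1 were at 0 in every library. The values are log2 values normalized by the authors, and without counts the depth behind them is unknown. The SD of the log2 difference between the replicates over all tested genes was 0.15 in the knockdown, 0.21 in the controls, 0.23 in the rescue and 0.30 in the mutant rescue.

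The E-box is shown here because it was common at the start of these genes. RefSeq promoter windows of 300 bases (250 before and 50 from the annotated gene start, GRCh38.p14) were given for 47 of the 54 genes. The motif CACGTG, which is its own reverse complement, was present in the windows of 19 of the 47 (40.4%), against 12.6% of the other tested genes with a window. Matches that began no more than 10 bases before the gene start or after it were found in 16 of the 47 (34.0%), against 2.12% of the other tested genes. That limit was chosen after the positions were seen. The 9 sites below belong to the genes with such a match that were lower in the knockdown, printed 5′ to 3′ on the gene's strand with the E-box in capitals.
BYSL, chr6:41921515-41921544, plus strand: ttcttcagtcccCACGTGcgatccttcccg
EBNA1BP2, chr1:43172241-43172260, minus strand: gcgattcggtggCACGTGga
GAR1, chr4:109815781-109815810, plus strand: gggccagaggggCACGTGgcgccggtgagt
GNL3, chr3:52686026-52686055, plus strand: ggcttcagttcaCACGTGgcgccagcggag
IMP4, chr2:130342900-130342929, plus strand: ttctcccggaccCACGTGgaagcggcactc
MRTO4, chr1:19251807-19251836, plus strand: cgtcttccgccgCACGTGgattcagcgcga
PES1, chr22:30591880-30591909, minus strand: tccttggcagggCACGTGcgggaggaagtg
RRP9, chr3:51941892-51941921, minus strand: gggttcagctgcCACGTGagttctgcggcc
WDR43, chr2:28894658-28894687, plus strand: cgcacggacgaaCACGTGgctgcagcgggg

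The E-box began 5 bases before the RefSeq gene start in RRP9, and between 3 and 42 bases after it in the other 8 of these genes. The motif was present in 11 of 24 genes called lower in the knockdown (45.8%) and in 8 of 23 not called (34.8%), so it was also common in genes whose change did not pass the test. A match is a description of these letters, and binding was not measured.

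**Figure D1:**
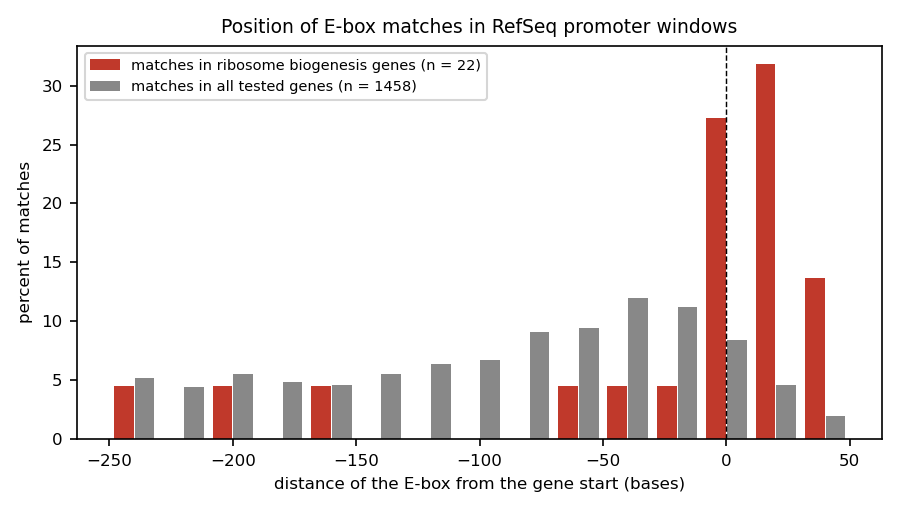
Distance of each CACGTG match from the RefSeq gene start (bases, x axis) as a percent of all matches in bins of 20 bases (y axis), for 22 matches in the ribosome biogenesis genes (red) and 1458 matches in all tested genes (grey). Of the 22 matches, 16 lie from 10 bases before the start on, against 218 of the 1458.

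The 54 genes were, at their median, lower in both knockdown libraries than in the controls, and lay between these levels in the rescue libraries. Relative to the control mean of each gene, their median log2 value was −0.39 and −0.40 in the knockdown libraries, −0.15 and −0.18 in the rescue libraries, and −0.21 and −0.32 in the mutant rescue libraries. The median over all tested genes stayed between −0.01 and 0.01 in each of the 8 libraries. The highest group mean was in the controls for 39 of the 54 genes, in the rescue for 9, in the mutant rescue for 5 and in the knockdown for 1. The lowest was in the knockdown for 37, in the mutant rescue for 15, in the rescue for 2 and in the controls for none. As a share of the linear total of each library, the 54 genes together made up 10069 to 10288 ppm in the controls, 8002 to 8081 in the knockdown, 8686 to 8729 in the rescue and 7415 to 7703 in the mutant rescue. By this sum the mutant rescue and not the knockdown was the lowest group, so the order of these 2 groups depends on the scale.

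**Figure D2:**
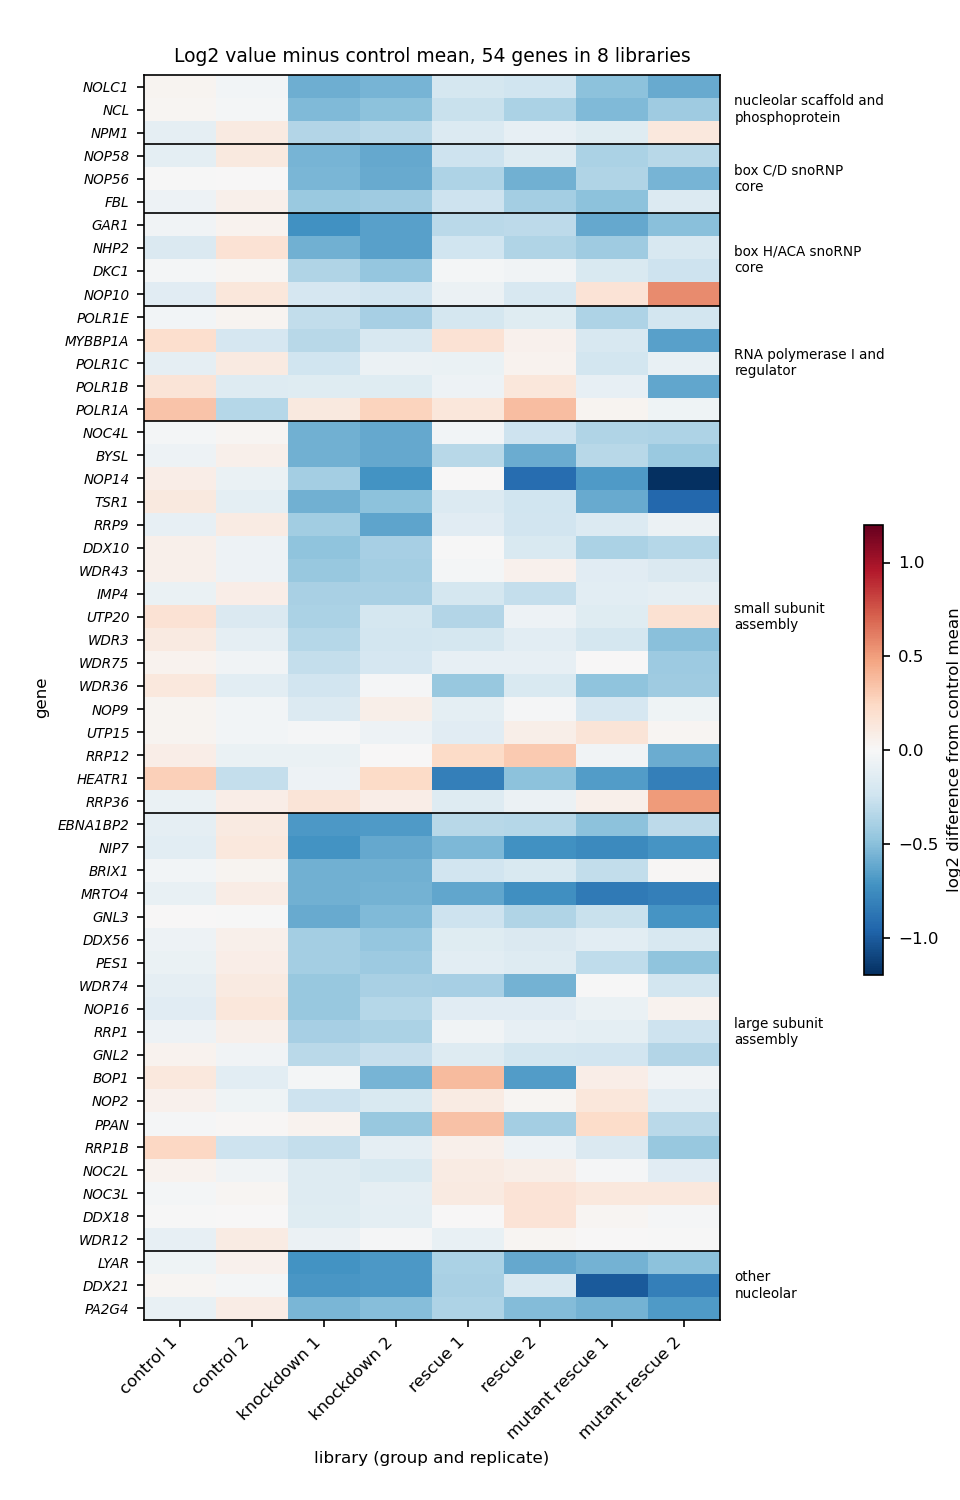
Log2 value of each of the 54 genes (y axis, grouped by role) in each of the 8 libraries (x axis), minus the mean of that gene's 2 control libraries; blue is lower and red higher than the control mean, and the colour scale ends at 1.2 log2 on either side. The 2 knockdown columns are blue for most genes, in the RNA polymerase I block for all but POLR1A. The mutant rescue columns hold both the darkest blue cells and the red cells of NOP10 and RRP36.

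**Figure D3:**
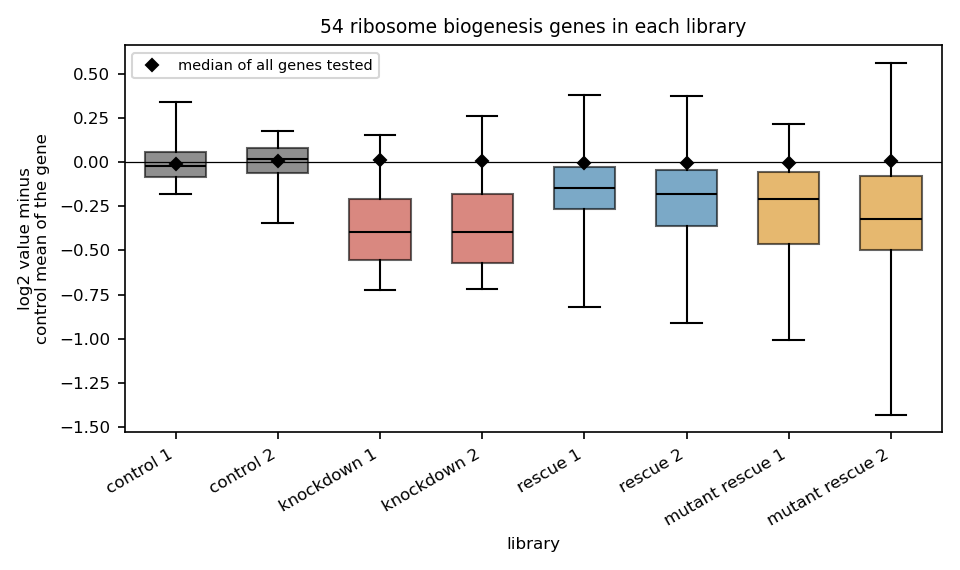
Distribution of the 54 genes in each library (x axis), as log2 value minus the control mean of the gene (y axis); boxes span the quartiles, lines inside them are medians, whiskers reach the lowest and highest gene, and diamonds are the medians of all tested genes. The knockdown medians lie at −0.39 and −0.40 while the diamonds stay near 0.

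In the knockdown 26 of the 54 genes fell relative to the controls and none rose (limma over all 13030 genes, Benjamini-Hochberg adjusted p under 0.05). Of all tested genes 12.8% were called in this comparison, 7.44% lower and 5.35% higher. These shares were not matched for expression level. The mean log2 value of the 54 was 10.82 to 10.83 in the controls, against control medians of 8.36 and 8.30 over all tested genes. With a filter of 5 ppm 28 of the 54 were called lower, against 1058 of 10128 genes. The median log2 change of the 54 was −0.39, against 0.01 for all tested genes. The change was below 0 in 51 of the 54, the exceptions being POLR1A, RRP36 and HEATR1, none of which was called. Both knockdown libraries lay below both control libraries in 40 of the 54, against 31.4% of all tested genes. The 26 that fell changed by −0.70 to −0.39, which is 1.63-fold to 1.31-fold.

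Among the scaffold proteins, NOLC1, a phosphoprotein that chaperones snoRNPs, had log2 values of 12.12 and 12.06 in the controls and 11.51 and 11.53 in the knockdown. The 2 groups did not overlap, and NOLC1 was 1.48-fold lower in the knockdown (log2 change −0.57, SE 0.09, adjusted p = 0.00598). NCL, the pre-rRNA-binding protein nucleolin, fell by 0.51 on the log2 scale. NPM1, the scaffold of the granular outer layer of the nucleolus and a gene often mutated in acute myeloid leukemia, was 13.41 and 13.63 in the controls and 13.17 and 13.20 in the knockdown. Its change of −0.34 did not pass the test (adjusted p = 0.109). GENCODE lists 45 named pseudogenes of NPM1, so its value is uncertain where reads were shared with them.

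The snoRNP cores were lower as well. NOP58, which holds the box C/D particle together with NOP56, was 12.38 and 12.61 in the controls and 11.94 and 11.88 in the knockdown, and fell by 0.59 (1.5-fold, SE 0.10, adjusted p = 0.0102). NOP56 fell by 0.58, and the methyltransferase FBL, at −0.44, missed the threshold narrowly (adjusted p = 0.05002). Of the box H/ACA proteins, GAR1 was 9.71 and 9.80 in the controls against 9.03 and 9.10 in the knockdown. With a fall of 0.69 (1.61-fold, SE 0.10), GAR1 had the smallest adjusted p of the 54 genes, 0.00448. NHP2 fell by 0.61 and the pseudouridine synthase DKC1 by 0.41, while NOP10 had a change of −0.22 that did not pass (adjusted p = 0.358). The 2 core groups thus had 5 of 7 genes called lower.

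None of the 5 genes of RNA polymerase I and its regulation was called. POLR1E, a subunit that stabilises the enzyme at its promoter, had the smallest adjusted p of the 5 (0.0723). It was 8.97 and 9.05 in the controls and 8.72 and 8.62 in the knockdown, a change of −0.34 in which the libraries did not overlap. The authors' deposited table calls POLR1E lower (log2 change −0.52, adjusted p = 0.0446) and none of the other genes of this role. The catalytic subunits POLR1A and POLR1B had changes of 0.19 (95% interval −0.27 to 0.65) and −0.15 (−0.54 to 0.25). POLR1C, shared with RNA polymerase III, had a change of −0.16 (−0.42 to 0.11), and MYBBP1A, a nucleolar regulator, one of −0.26 (−0.66 to 0.13). These intervals include the median change of the 54 genes, except for that of POLR1A. The control values of POLR1A, 9.77 and 9.08, were farther apart than its group means.

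Of the 17 small subunit assembly genes, 7 fell. NOC4L, which acts in a complex with NOP14 in maturation and export of the small subunit, was 10.40 and 10.46 in the controls and 9.86 and 9.82 in the knockdown, a fall of 0.59 (1.51-fold, SE 0.10, adjusted p = 0.00900). BYSL fell by 0.59, TSR1, a GTPase-like factor of late small subunit precursors, by 0.54, and RRP9, a protein specific to the U3 snoRNP, by 0.52. The helicase DDX10 fell by 0.44, the processome protein WDR43 by 0.43 and the U3-associated protein IMP4 by 0.39. The other 10 ranged from −0.56 in NOP14 to 0.12 in RRP36. In NOP14 the 2 rescue libraries differed by almost a whole log2 unit (9.88 and 8.96), and its interval in the knockdown ran from −1.27 to 0.15.

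Of the 19 large subunit assembly genes, 9 fell and all 19 had a change below 0. EBNA1BP2, a scaffold of early large subunit precursors, was 11.42 and 11.65 in the controls and 10.85 and 10.86 in the knockdown, a fall of 0.68 (1.60-fold, SE 0.11, adjusted p = 0.00664). NIP7 fell by 0.67, the rRNA-binding protein BRIX1 by 0.58, MRTO4, a placeholder for the stalk protein P0, by 0.57, and GNL3, the GTPase nucleostemin, by 0.57. The helicase DDX56 fell by 0.43, NOP16 by 0.40 and RRP1 by 0.39. PES1, BOP1 and WDR12 form a single complex required for large subunit processing. Of these PES1 fell by 0.42 (adjusted p = 0.0295), whereas BOP1 had a change of −0.29 (−0.99 to 0.41) and WDR12 of −0.04 (−0.27 to 0.18). BOP1 was 10.17 and 9.12 in the 2 rescue libraries and PPAN 9.38 and 8.63, so neither gene could be placed well. PPAN also overlaps the readthrough gene PPAN-P2RY11.

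All 3 other nucleolar genes fell. LYAR, a nucleolar zinc finger protein of growing cells, was 10.26 and 10.37 in the controls and 9.60 and 9.62 in the knockdown. Its fall of 0.70 (1.63-fold, SE 0.11, adjusted p = 0.00598) was the largest among the 54 genes. DDX21, a helicase that links RNA polymerase I and II transcription with rRNA processing, was 12.26 and 12.21 in the controls and 11.54 and 11.55 in the knockdown, a fall of 0.69 (1.61-fold, SE 0.11, adjusted p = 0.00598). PA2G4, a growth-regulated RNA-binding protein, fell by 0.53. In LYAR and DDX21, as in GAR1, the gap between controls and knockdown was several times the gap between the replicates of either group.

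**Figure D4:**
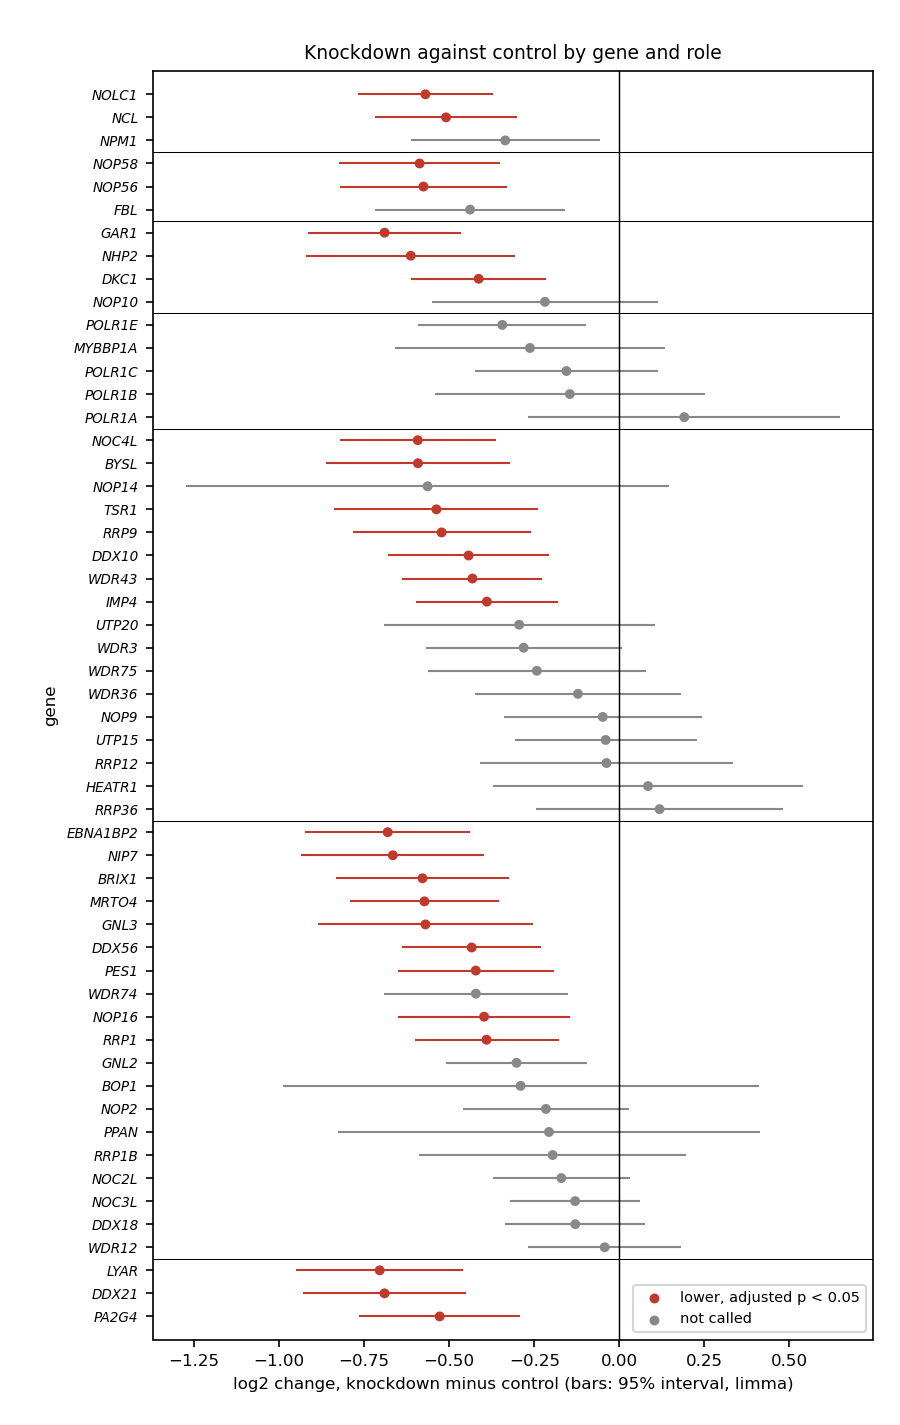
Log2 change from control to knockdown (x axis) of each of the 54 genes (y axis, grouped by role, lines between roles) with 95% intervals from limma; red genes were called lower and grey genes were not called. All 26 red points lie at or below −0.39, and the 5 genes of the RNA polymerase I group are grey.

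These calls needed both knockdown libraries. Without knockdown library 1 or 2 none of the 54 was called, with adjusted p for the 26 between 0.075 and 0.295 and between 0.0597 and 0.212, although each stayed lower. Calls over all genes dropped to 187 and 179 from 1667 in those fits, where the single knockdown library was assumed to vary like the other groups. The median change of the 54 was −0.38 without control library 2 and −0.43 without control library 1. Fewer of the 54, and fewer of all genes, were called in both of these fits, with the larger drop without control library 2.

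The rescue libraries lay above the knockdown for most of these genes, but few differences passed the test. The change from knockdown to rescue was above 0 in 48 of the 54, with a median of 0.19 against 0.0045 for all tested genes. Both rescue libraries lay above both knockdown libraries in 36 of the 54, against 31.3% of all tested genes. Only 3 of the 54 were called higher and none lower. Of all tested genes 4.24% were called, 3.22% higher and 1.02% lower, so in this model the count itself is close to the background. At an unadjusted p under 0.05 there were 22 of the 54, and 2566 of all 13030 tested genes. With only these 2 groups fitted, 17 of the 54 were called higher and 1 lower, against 865 and 381 of all 13030. The count thus depends on which libraries enter the model.

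The 3 genes called with all 8 libraries in the model were NOC4L, WDR43 and DKC1. WDR43 was 11.91 and 11.95 in the knockdown and 12.33 and 12.41 in the rescue, a rise of 0.45 (1.36-fold, SE 0.09, adjusted p = 0.0306). The rescue values of WDR43 lay between the 2 control values, 12.43 and 12.30. NOC4L rose by 0.45 to 10.40 and 10.18 (SE 0.10, adjusted p = 0.0438), and DKC1 by 0.38, from 11.83 and 11.72 to 12.17 and 12.15 (SE 0.09, adjusted p = 0.0492). In all 3 the rescue libraries lay above the knockdown libraries. When 1 library was left out, the rise was 0.41 to 0.49 in WDR43, 0.34 to 0.56 in NOC4L and 0.33 to 0.44 in DKC1. None of the 3 kept its call without either rescue library or either knockdown library, where calls over all genes dropped as well.

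HEATR1, an early small subunit processome protein, had the lowest change of the 54 in this comparison. It was 9.89 and 10.17 in the knockdown and 9.12 and 9.46 in the rescue, a change of −0.74 that limma did not call (adjusted p = 0.0802). The authors' deposited table gives HEATR1 a log2 change of −0.94 with an adjusted p of 0.000287 in that comparison. The controls, at 10.24 and 9.66, lay above both rescue libraries and overlapped the knockdown.

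In the mutant rescue 2 of the 54 were higher than in the knockdown and 1 was lower. Of all tested genes 11.3% were called in this comparison, 5.58% higher and 5.73% lower, so neither count exceeds the background. The median change of the 54 was 0.11, against 0.05 for all tested genes. NOP10, the smallest box H/ACA protein, was 10.92 and 10.89 in the knockdown and 11.28 and 11.69 in the mutant rescue, a rise of 0.58 (1.5-fold, SE 0.15, adjusted p = 0.0415). BRIX1 was 12.06 in both knockdown libraries and 12.35 and 12.65 in the mutant rescue, a rise of 0.44 (1.36-fold, SE 0.11, adjusted p = 0.0429). HEATR1 was 9.28 and 9.13 in the mutant rescue, a fall of 0.83 against the knockdown (1.78-fold, SE 0.20, adjusted p = 0.0390).

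The median of the 54 in this comparison changed sign with the scaling. With libraries scaled to equal linear totals it was −0.11, where the median of all tested genes shifted to −0.17. Of the 54, 4 were called, all lower, against 2763 lower of all 13030 tested genes, so this count was below the background. With quantile normalization the median was −0.02 and 2 were called, both lower, where 455 of all 13030 were called lower. When 1 library was left out, the change was −0.97 to −0.69 in HEATR1, 0.38 to 0.78 in NOP10 and 0.29 to 0.59 in BRIX1. None of these 3 kept its call without either knockdown library or without mutant rescue library 2. Without either rescue or either control library only HEATR1 of the 3 kept its call.

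Of the 54 genes 3 were higher in the rescue than in the mutant rescue, and none was lower. Of all tested genes 10.5% were called in this comparison, 5.90% higher and 4.61% lower, so 3 of 54 is no more than the background. This contrast is the test of whether the 2 rescues differ in their change from the knockdown. DDX21, on chromosome 10 (68956128 to 68985073, plus strand, GRCh38), was 11.84 and 12.04 in the rescue and 11.23 and 11.42 in the mutant rescue. The difference of 0.62 (1.54-fold, SE 0.11, adjusted p = 0.0109) was the largest of the 3. The knockdown values of DDX21, 11.54 and 11.55, lay between the 2 groups.

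TSR1, on chromosome 17 (2322503 to 2337507, minus strand), was 11.04 and 10.97 in the rescue and 10.61 and 10.27 in the mutant rescue, a difference of 0.57 (1.49-fold, SE 0.13, adjusted p = 0.0313). Its knockdown values of 10.63 and 10.71 lay just above those of the mutant rescue. NOLC1, on chromosome 10 (102152176 to 102163871, plus strand), was 11.89 and 11.86 in the rescue and 11.60 and 11.49 in the mutant rescue, a difference of 0.33 (1.25-fold, SE 0.09, adjusted p = 0.0486). In the mutant rescue NOLC1 spanned its knockdown values of 11.51 and 11.53. Among the fits that left out 1 library, DDX21 lost its call only without rescue library 2. With only the 2 rescues fitted, none of the 3 genes kept its call. When 1 library was left out, the difference was 0.52 to 0.72 in DDX21, 0.40 to 0.74 in TSR1 and 0.27 to 0.38 in NOLC1. TSR1 and NOLC1 lost their calls in most of these fits, and the number of calls over all genes also varied.

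**Figure D5:**
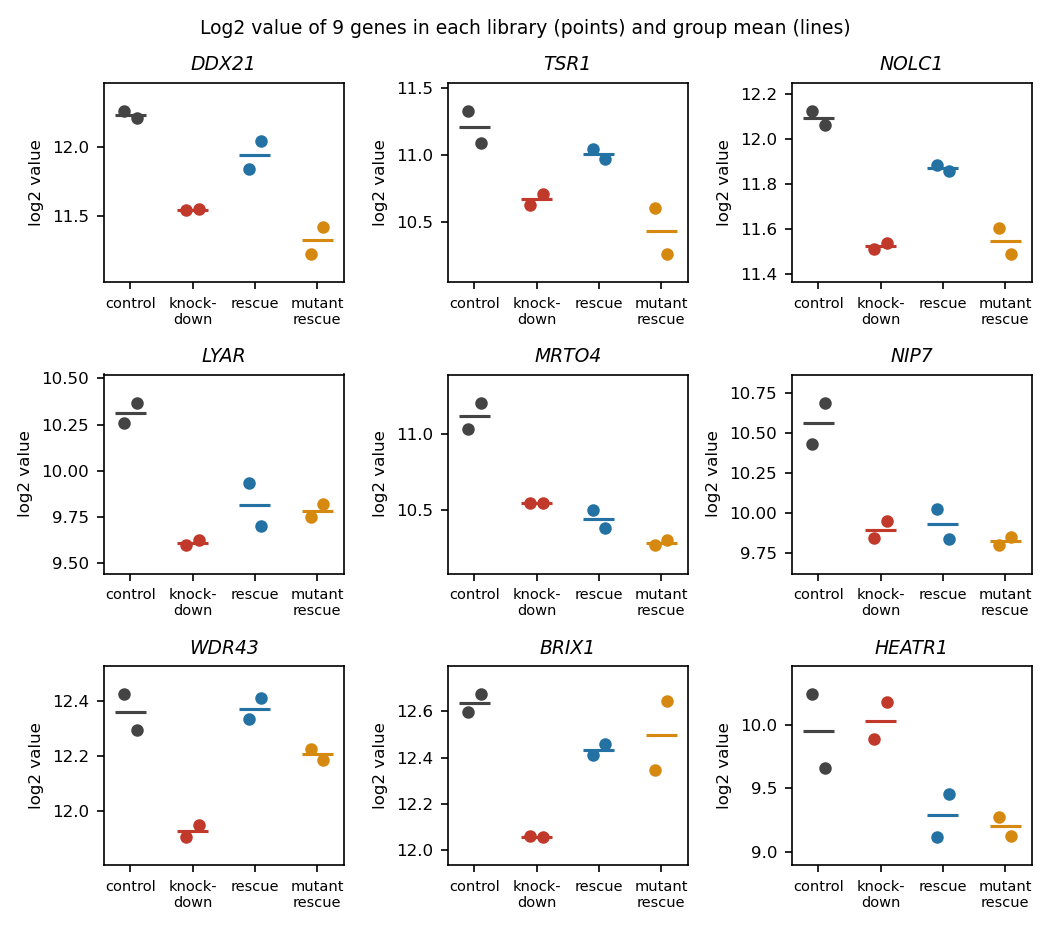
Log2 values (y axis, a separate range in each panel) of 9 genes in the 4 groups (x axis); points are libraries and lines are group means, n = 2 each. DDX21, TSR1 and NOLC1 are higher in the rescue than in the mutant rescue, MRTO4 and NIP7 stay below the controls in all 3 other groups, and HEATR1 is lower in both rescues than in the knockdown.

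Set against the controls, 6 of the 54 were lower in the rescue and none was higher. Of all tested genes 7.18% were called, 2.27% lower and 4.91% higher. The median change of the 54 was −0.16, against −0.01 for all tested genes. MRTO4 was 11.03 and 11.20 in the controls and 10.50 and 10.38 in the rescue, a fall of 0.68 (1.60-fold, SE 0.10, adjusted p = 0.00378) that kept its call when any single library was left out. NIP7 was 10.43 and 10.69 against 10.02 and 9.84, a fall of 0.63 (SE 0.12, adjusted p = 0.0153). LYAR fell by 0.50, to 9.93 and 9.70. WDR74, which was not called in the knockdown (−0.42, adjusted p = 0.0510), was 10.46 and 10.67 in the controls and 10.16 and 10.00 in the rescue, a fall of 0.48 (SE 0.12, adjusted p = 0.0464). NOP56 and PA2G4 fell by 0.47 and 0.45. Of the 6 only MRTO4 kept its call without control library 2, and likewise without rescue library 2. Calls over all genes dropped in both of these fits.

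In the mutant rescue 21 of the 54 were lower than in the controls and none was higher. Here the background was high, with 24.9% of all tested genes called, 11.0% lower and 13.9% higher. The median change of the 54 was −0.30, against 0.01 for all tested genes. NOP14, a small subunit protein that binds NOC4L, was 9.95 and 9.80 in the controls and 9.19 and 8.44 in the mutant rescue, a change of −1.06 (2.08-fold, SE 0.31, adjusted p = 0.0388) with the 2 mutant libraries far apart. DDX21 fell by 0.91 (1.88-fold, SE 0.11, adjusted p = 0.000869). MRTO4 fell by 0.83, to 10.27 and 10.30 (SE 0.10, adjusted p = 0.000871), and TSR1 by 0.77 (SE 0.13, adjusted p = 0.00462). NIP7 and HEATR1 both fell by 0.74, PA2G4 by 0.62, GAR1 by 0.56 and NOLC1 by 0.55.

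By role, the genes lower in the mutant rescue than in the controls were 2 of 3 scaffold proteins, 2 of 3 box C/D and 1 of 4 box H/ACA proteins, 7 of 17 small subunit and 6 of 19 large subunit genes, and all 3 other nucleolar genes. None of the 5 RNA polymerase I genes was called there. DDX21, NOLC1, GAR1, NCL, NIP7, MRTO4, PA2G4 and TSR1 kept their calls whichever library was left out. NOP14 lost its call without either control library, either knockdown library or mutant rescue library 2. The count was 10 and 12 without control libraries 2 and 1, and 11 without either knockdown library or without mutant rescue library 2.

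The 26 genes that fell in the knockdown can be followed through the other contrasts, which share the knockdown or control libraries with it and are therefore not independent. Their median change was −0.57 from control to knockdown, 0.32 from knockdown to rescue and 0.19 from knockdown to mutant rescue. Against the controls the median of these 26 was −0.23 in the rescue and −0.39 in the mutant rescue, with 5 and 17 of them called lower. From knockdown to rescue the 26 ranged from −0.10 in MRTO4 to 0.45.

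Other genes of the same pathways, in lists chosen by function but with earlier results of these data known, were read beside the 54. In the knockdown 30 of 128 tested genes of these 5 lists fell (23.4%, against the 7.44% of all tested genes) and none rose, with a median of −0.26. Of the other RNA polymerase I genes 2 of 16 fell, the termination factor TTF1 (−0.45) and CD3EAP, also named POLR1G (−0.45). Of the other small subunit processome genes 11 of 43 fell, led by CIRH1A, also named UTP4 (−0.82), UTP18 (−0.61) and ESF1 (−0.53). Of the other large subunit genes 8 of 43 fell, led by CEBPZ (−0.63), LAS1L (−0.44) and MAK16 (−0.51). Of the snoRNP assembly genes 4 of 12 fell, led by NUFIP1 (−0.55), SHQ1 (−0.45) and RUVBL1 (−0.36). Of the RNA exosome genes, which trim rRNA precursors, 5 of 14 fell, led by EXOSC9 (−0.54), EXOSC2 (−0.46) and EXOSC3 (−0.44).

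From knockdown to rescue 5 of the 128 rose (3.91%, against 3.22% of all tested genes), EXOSC9 (1.29), CEBPZ (0.65), DDX24 (0.41), LAS1L (0.38) and AATF (0.38), and GNL3L fell by 0.69. From knockdown to mutant rescue 10 rose (7.81%, against 5.58%) and 2 fell (1.56%, against 5.73%), the latter GNL3L (−0.82) and SENP3 (−0.42). Between the 2 rescues 3 were higher in the rescue (2.34%, against 5.90%), EXOSC9 (0.80), RCL1 (0.55) and DDX24 (0.32), and POLR1D (−0.42) was lower. Against the controls 1 was higher and 4 lower in the rescue (3.12% lower, against 2.27%), and 2 were higher and 15 lower in the mutant rescue (11.7% lower, against 11.0%). Outside the comparison of knockdown with control, these shares of called genes were thus near or below the background. The direction was less even. From knockdown to rescue the change was above 0 in 104 of the 128 and below 0 in 24 (median 0.17, against 0.0045 for all tested genes). From knockdown to mutant rescue it was above 0 in 105 and below 0 in 23 (median 0.18, against 0.05). The gene higher in the rescue than in the controls was EXOSC9 (0.76).

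MYC itself was not called lower in any of the 6 comparisons. Its log2 value was 11.98 and 11.89 in the controls, 11.72 and 11.76 in the knockdown, 12.36 and 12.12 in the rescue and 12.59 and 12.20 in the mutant rescue. The change in the knockdown, −0.19 (SE 0.14), did not pass (adjusted p = 0.394). Nor did the change from knockdown to rescue, 0.50 (SE 0.14, adjusted p = 0.0886). In the mutant rescue MYC was higher than in the knockdown by 0.65 (adjusted p = 0.0290) and higher than in the controls by 0.46 (adjusted p = 0.0425), where 21 of the 54 were lower. Of the 10 genes for MYC and its partners only MXD1, which encodes a repressor that competes with MYC for MAX, was called in the knockdown, with a rise of 0.51 (adjusted p = 0.0201). Of 5 tested genes listed for nucleolar stress only CDKN1A, which encodes the cell cycle inhibitor p21, was called in the knockdown, with a rise of 0.91 (adjusted p = 0.00170), and 3 of the 5 had a change below 0.

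Small nucleolar RNAs lie within 8 of the 54 genes in GENCODE on GRCh38, namely NCL, NOP56, NOP58, DKC1, WDR43, TSR1, GNL3 and PPAN. That is 14.8% of the 54, against 192 of 11741 tested protein-coding genes (1.64%). Of the 8, all but PPAN were called lower in the knockdown, where 26 of the 54 and 7.44% of all tested genes were called lower. PPAN had a lower mean in the knockdown (8.83) than in the controls (9.03) but was not called. The share called among other genes that contain small nucleolar RNAs was not examined. GNL3 contains 6 annotated small nucleolar RNAs and NOP56 contains 5. Levels of the small nucleolar RNAs were not analysed here. A named pseudogene exists for 13 of the 54 and an antisense gene overlaps 29, and the sources used here do not say whether the authors' counting used strand.

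Genes of other kinds also changed between these groups, not all in the same direction, and their part in the results was not tested. In the knockdown 13 of 18 S phase genes fell and none rose. Their sum was 3793 to 4070 ppm in the controls, 2770 to 2831 in the knockdown, 3409 to 3491 in the rescue and 2074 to 2419 in the mutant rescue. Of 12 monocyte markers 7 rose in the knockdown and none fell, and their sum was 3158 to 3754, 11435 to 11923, 8215 to 9389 and 16873 to 24631 ppm in the same order. Of 12 interferon-stimulated genes 4 rose in the knockdown and all 12 rose from knockdown to rescue, with sums of 215 to 248, 309 to 324, 8375 to 9446 and 2055 to 2106. In bulk RNA fewer cells with high expression and less RNA per cell cannot be told apart.

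The authors' deposited table, made with another model, has 32 of the 54 lower and none higher in the knockdown at an adjusted p under 0.05, where it calls 20.1% of the tested genes, 13.4% lower and 6.72% higher. From knockdown to rescue the authors' deposited table has 15 of the 54 higher and 1 lower, with 10.1% of the tested genes called, 7.04% higher and 3.08% lower. Between the rescues it has DDX21 (log2 change 0.75, adjusted p = 0.00881) and TSR1 (0.68, adjusted p = 0.0388) higher, where 7.66% of the tested genes are called, 3.68% higher, and it does not call NOLC1 (0.39, adjusted p = 0.231). From control to mutant rescue the authors' deposited table has 11 of the 54 lower and none higher, with 16.8% of the tested genes called, 5.70% lower. Its median log2 change for the 54 in the knockdown is −0.53.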

How the data were processed

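RNA of 8 MOLM13 libraries, 2 in each of 4 groups, was analysed from a single table of the whole series, with groups and replicate numbers taken from the sample titles. Per the file headers the table is output of HOMER (getDiffExpression.pl), and the submitters' processing notes also name Trim Galore, kallisto and GRCh38, with no version or role. Each library has a column of deposited log2 values, which the authors had normalized, with no option stated. Low genes have nearly equal values throughout, which understates their changes. For every pair of groups the authors also deposited a log2 fold change, a p-value and an adjusted p-value, from a model that the sources used here do not give. Without counts no depth or counting error can be given, and precision rests on 2 libraries per group.

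The 54 genes, their roles and the other gene lists were chosen with earlier results of these data known. Of 35369 genes with a symbol, 10937 at 0 in every library and others below 1 ppm of the linear total in all but 1 library were left out, and 1 entry without a symbol was not used. On the remaining 13030, limma 3.58.1 (R 4.3.3) was fitted to the log2 values as deposited, without a pseudocount, as 1 model of 4 group means over all 8 libraries (4 residual degrees of freedom, moderated with a mean trend). A gene was called where its p, adjusted by the Benjamini-Hochberg method over all 13030, was under 0.05. The procedure was tested on simulated data. Log2 changes and fold changes are on the scale of the deposited values.

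Every one of the 54 could be named. Values in each library were given for up to 4 called genes with the largest change per comparison and direction, and for the smallest adjusted p per role in the knockdown. Genes not called were named where they complete a complex. Of the genes in the other lists, 1 is not reported here by name. Of the other lists, up to 3 genes with the smallest adjusted p were named, and a few more where all called genes were given. RefSeq windows (GRCh38.p14) were matched by symbol for 47 of the 54, and GENCODE genes for all 54.

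Alternatives were no filter, a filter of 5 ppm, no mean trend, only the 2 groups compared, a replicate block, 3 other scalings, the authors' deposited calls, and leaving out each library.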

Additional observations from a re-analysis of the deposited data

Results flagged for a closer look

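The change from knockdown differed between the rescue and the mutant rescue in 3 of the 54 genes, by the limma contrast of the 2 rescues. DDX21 was above its knockdown level in both rescue libraries and below it in both mutant rescue libraries, with a difference of 0.62 on the log2 scale (adjusted p = 0.0109). TSR1 followed the same order, with a difference of 0.57 (adjusted p = 0.0313). NOLC1 was above its knockdown level in both rescue libraries, and its mutant rescue libraries lay on either side of that level. The difference was 0.33 (adjusted p = 0.0486), and 0.27 to 0.38 when 1 library was left out. NOLC1 and TSR1 lost their calls in most of those fits, and DDX21 only without rescue library 2. The authors' deposited table does not call NOLC1 (adjusted p = 0.231). None of the 3 genes kept its call with only the 2 rescues fitted. No group held enough libraries to be checked for a library that stands apart.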

How the results depend on the processing

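In the knockdown against the controls the 26 calls and the median of −0.39 kept their direction under every alternative run. The count was 17 with no filter, and the median was −0.33 with equal linear totals, −0.30 with quantile normalization and −0.53 in the authors' deposited table. Leaving out 1 library gave 0 to 31 calls and medians of −0.43 to −0.38.

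From knockdown to rescue the 3 calls became 0 with no filter, with libraries centred on the median of all genes (median 0.17), with equal linear totals (median 0.075) and with quantile normalization (median 0.090). They became 18 with only the 2 groups compared, where 1246 of all 13030 tested genes were called. In the authors' deposited table they were 16 (median 0.26). Leaving out 1 library gave medians of 0.19 to 0.26, and the number of calls varied, also over all genes.

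From knockdown to mutant rescue the 2 higher calls and 1 lower call became 0 with no filter. They became 1 lower call with no mean trend and with only the 2 groups compared, against 572 and 156 lower of all 13030 genes. With equal linear totals there were 4, all lower, against 2763 lower over all genes, and the median turned to −0.11. With quantile normalization there were 2, both lower, against 455 lower over all genes, and the median was −0.017. Leaving out 1 library gave medians of 0.087 to 0.14, and the number of calls varied, also over all genes.

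Between the rescues the 3 calls became 1 with no filter, 0 with only the 2 groups compared, 6 with a replicate block and 6 with equal linear totals (median 0.21). Leaving out 1 library gave 0 to 9 calls and medians of 0.098 to 0.12. From control to rescue the 6 calls became 2 with no filter, 2 with only the 2 groups compared and 10 with equal linear totals. The median was −0.19 when centred, −0.22 with equal totals, −0.20 with quantile normalization and −0.22 in the authors' deposited table. Leaving out 1 library gave 1 to 8 calls and medians of −0.19 to −0.14.

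From control to mutant rescue the 21 calls became 10 with no filter, 10 with only the 2 groups compared and 11 in the authors' deposited table. The median was −0.36 when centred, −0.46 with equal totals and −0.36 with quantile normalization. Leaving out 1 library gave 10 to 23 calls and medians of −0.32 to −0.21. Equal linear totals shifted the median of all genes by over 0.1 from knockdown to rescue (to −0.11), from knockdown to mutant rescue (to −0.17) and from control to mutant rescue (to −0.15). With no filter 24432 genes were tested in place of 13030. Fewer libraries or groups left fewer residual degrees of freedom, but the counts moved in both directions. With only the 2 groups compared, calls over all genes rose from 1667 to 2620 in the knockdown against the controls. Between the 2 rescues they fell from 1370 to 192. The groups also differed in replicate spread (SD 0.15 in the knockdown, 0.30 in the mutant rescue). Causes of the changed counts were not tested.

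Deviations of libraries with the same replicate number correlated between −0.021 and 0.41 over the pairs of groups, so the numbers were not taken to pair the libraries. With the replicate number as a block the calls were 27, 2, 4, 6, 6 and 20. Over all 13030 genes they were 1787, 592, 1805, 1765, 1010 and 3541. The order is knockdown against control, rescue and mutant rescue against knockdown, rescue against mutant rescue, rescue against control and mutant rescue against control.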
